A study of Mus musculus with 884 samples.

Results

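Of 29544 autosomal bins of 80 kb that could be compared in 8 groups of mouse cells, 7614 (25.8%) replicated early in every group. A bin belonged to this set when it was called replicated in at least 80% of the mid-S-phase cells of each group, over cells with a call, and was called in at least 50% of them. The 7614 bins cover 609 Mb of the 30890 bins in the table, which spans chromosomes 1 to 19. By comparison, 12920 bins were early in no group, 9010 in 1 to 7 groups, and 4162 were late in all 8 groups (replicated in at most 20% of the same cells).

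Replication state was measured by single-cell Repli-seq, which amplifies and sequences the DNA of one sorted cell and calls each stretch of its genome replicated or not from the copy number. The groups were female CBMS1 embryonic stem cells of strain CBA/MsM kept in 2i/LIF medium (d0), the same line after 2, 3, 4, 5, 6 and 7 days of differentiation (d2 to d7), and female epiblast stem cells of strain C57BL6, titled p5 and kept in Activin/FGF medium (EpiSC). Differentiating cells spent 2 days as epiblast-like cells and then grew as floating aggregates in plain GK15 medium, a route towards neurectoderm. Cells were sorted by DNA content, and the labels do not tell cultures apart. Each group therefore stands as 1 sample, without a test between groups, and cells were never treated as replicates of a state. EpiSCs differ from the other groups in strain, origin and medium at once, which cannot be told apart, and CBMS1 is a single line.

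Replication timing is the order in which stretches of a genome are copied during S phase. Neighbouring origins of replication tend to fire together, so timing changes along a chromosome in domains far longer than a single bin. In mammalian cells, early domains are as a rule rich in genes and open chromatin and lie in the nuclear interior, and late domains are as a rule gene-poor and lie near the nuclear lamina. Many domains switch timing when stem cells differentiate, while others keep it, and the bins described here are early ones that kept it under the rule. The calls are on the mm9 build, and genes and sequence were not placed on the bins here.

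Each cell has a replication score, the share of its called autosomal bins that were replicated, in percent. The rule used 293 S-phase cells with scores of 40 to 70%, called window cells below: 13 (d3), 18 (d4), 20 (d5), 21 (d6), 26 (EpiSC), 35 (d2), 59 (d0) and the remainder d7. The 254 S-phase cells with scores under 40%, called early cells below, were not used to choose the bins and come from the same groups. They numbered 17 (d3), 18 (d4), 22 (d5), 25 (EpiSC), 27 (d6), 45 (d7), 49 (d2) and 51 (d0), with mean scores of 15.7% at d4 to 25.1% at d0. A median of 29671 bins (range 4355 to 29874) and of 7613 of the 7614 bins early in every state were called per S-phase cell. Shares of cells carry exact Clopper-Pearson 95% intervals, which cover counting error only.

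Among the cells that chose them, the bins were replicated nearly everywhere. Their mean share ran from 94.1% at d4 to 98.6% at d5, and the lowest share of a bin in any group had a median of 91.5%. Only 4 bins were replicated in every called cell of all 8 groups. A total of 7 of the 293 cells stood apart, 3 at d0, 1 at d4 and 3 at d7, in that their calls did not follow the mean profile of their group (an area under the receiver operating curve below 0.8 when the profile was used to predict each call). In 5 of these 7 cells the bins early in every state were replicated less often than the other bins, as in a d0 cell with 15.0% of them replicated against 59.4% of the others. The 7 cells gave 35.9% of the 77272 calls of not replicated in these bins, and without them 640 bins (8.41%) were replicated in every called cell of all groups. Just inside the threshold, 368 bins had a lowest share of 80% to under 82%, many of them at exactly 80%. Just outside, 71 bins had a lowest share of 78% to under 80%, the highest being 79.8%. Groups with few cells can take few values in between. In cells with lower scores, described below, the bins just inside and just outside had mean shares of 31.97% and 30.4%.

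The share of all compared bins that was early was 36.8% at d3, 38.7% at d4, 38.8% at d2, 40.9% at d6, 41.5% at d7, 43.1% at d0 and d5 and 44.1% in EpiSCs, and the shared bins were 58.5% (EpiSC) to 70.1% (d3) of them. Another 1835 bins were early in 7 of the 8 groups, and 889 of these missed only at d3, the group with the fewest window cells (13). With present-series cells only, which leaves out cells already deposited in a previous series (50 at d0 and 35 at d7), the rule gave 2108 bins, and 3 of the 9 remaining d0 cells were among the 7 that stood apart. At minimum shares of 90% and 100% it gave 4251 and 4 bins.

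The bins were spread unevenly over chromosomes. Chromosome 11 had the highest share, with 46.3% of its called bins early in every state (687 of 1484), followed by chromosome 19 (34.4%, 250 of 726) and chromosome 9 (34.4%, 518 of 1508). Chromosome 3 had the lowest, 13.3% (260 of 1954), followed by chromosome 18 (18.3% of 1096) and chromosome 12 (18.8%, 269 of 1433). Across the 19 chromosomes the share did not follow length (Pearson's r = -0.118, Spearman's rho = 0.0018), and it was lower where more bins were late in every state (r = -0.597, rho = -0.549). Both are shares of the same called bins and exclude each other, so a negative relation is partly given by the definitions. Chromosome 13 was an exception to that relation, with few bins of either kind (18.9% early and 5.35% late in every state), while chromosomes 1, 14 and 16 had about as many of one as of the other and chromosome 3 had more late ones (18.8%).

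Along the chromosomes, the bins became more frequent with distance from the low-numbered end, which in the mouse, whose autosomes are telocentric, is the end of the centromere. With each chromosome cut into 5 equal parts, from the low to the high end 18.8%, 22.5%, 22.7%, 28.5% and 35.4% of called bins belonged to the set. The last part held a larger share than the first on 15 of 19 chromosomes. The gap was widest on chromosome 4, with 3.13% in the first part and 65.8% in the last. Chromosome 19 ran the other way, with 67.5% in the first and 19.6% in the last, as did chromosome 16 (40.5% and 15.6%) and, by under 5 points, chromosomes 12 and 14. Bins late in every state had no such slope: they were most frequent in the middle part (19.5%) and least in the last (7.64%).

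**Figure D1:**
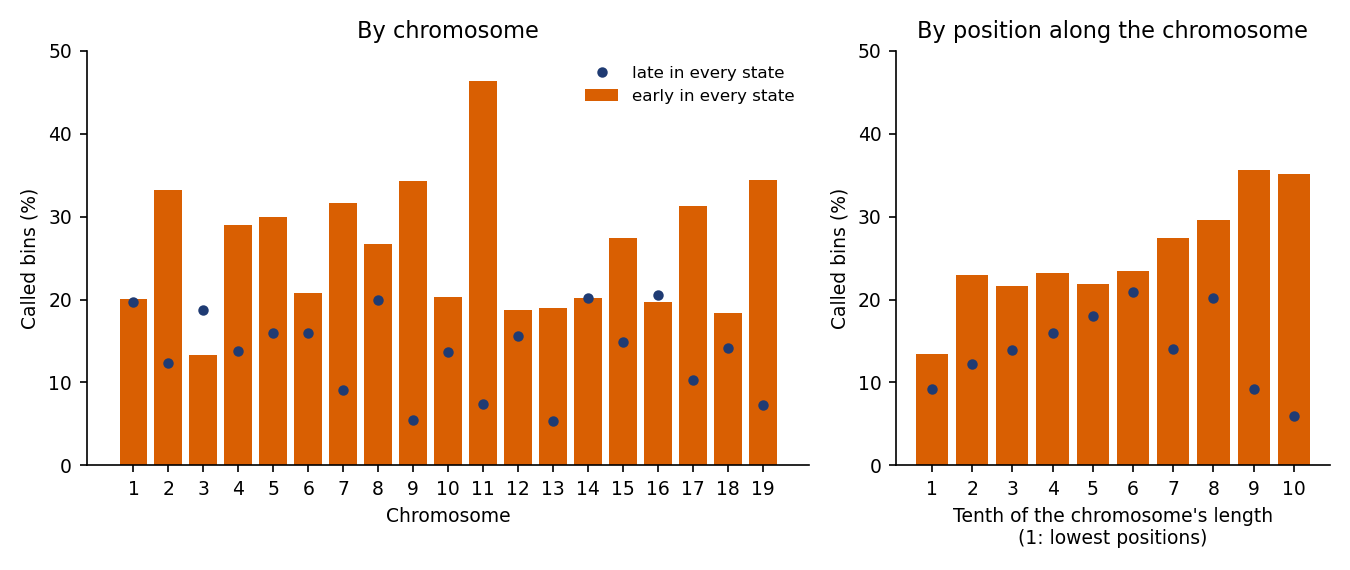
Percentage of called 80 kb bins that were early in every state (orange bars) or late in every state (blue points), by chromosome (left) and by 10 equal parts of the chromosome's length pooled over chromosomes 1 to 19 (right, 1 being the low-numbered end). Chromosome 11 stands highest at 46.3% and chromosome 3 lowest at 13.3%, and the pooled share rises from 13.4% in the first part to 35.1% in the last.

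The bins lay in long runs. The 7614 bins formed 704 runs of adjacent bins with a median length of 560 kb, and 453 runs of at least 400 kb (5 bins) held 7059 of them (92.7%). Runs of 2 Mb or more numbered 73 and held 2757 bins (36.2%), while 90 bins stood alone. Clustering of this kind was not particular to the set: of the bins late in every state 87.3% lay in runs of at least 400 kb, and of those early in 1 to 7 groups 81.1%. Of the bins early in a given group, whatever the other groups, 92.3% (d3) to 98.7% (d0) did. The longest run of bins early at d0 was 16560 kb, against 6560 kb for the set. How the authors turned reads into calls before deposit can also join neighbouring bins, and its part in run length was not tested.

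The longest run covered 82 bins (6560 kb) at chr2:152080001-158640000. It was followed by chr11:82480001-88960000 (6480 kb), chr7:103440001-109760000 (6320 kb), chr17:27840001-33120000 (5280 kb), chr9:62000001-66960000 (4960 kb), chr1:134160001-138960000 (4800 kb), chr15:95520001-100240000 (4720 kb) and chr11:74480001-78880000 (4400 kb). These 8 runs were not the earliest of all: the chromosome 2 run was replicated in 60.2% of early cells, averaged over groups, the second chromosome 11 run in 62.3%, and the chromosome 7 and chromosome 15 runs in 50.7% and 49.5%. The median over the 451 long runs with an early share in all groups was 46.7%.

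Most run ends were followed by a bin that was early in most groups. Of 1408 run ends, 1041 (73.9%) were followed by a bin early in 7 groups and 1344 (95.5%) by one early in 5 to 7, and none by a bin early in no group. Another 17 ends met a bin without enough calls and 4 the last called position of a chromosome. A run ends as soon as a bin misses the rule in any group, so such neighbours are largely given by the rule. Of the 1835 bins early in 7 groups, 889 missed only at d3, where 13 window cells give steps of 7.69 points. How far these coarse steps set the run ends was not tested. Bins early in every state and bins late in every state lay far apart. The median distance from a bin of the set to the nearest bin late in every state was 5.04 Mb, and the smallest was 0.4 Mb.

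Stretches without any such bin were as long as 38.96 Mb. The longest ran over 487 called bins at chr14:79840001-118800000, of which 414 were early in no group and 246 (50.5%) late in every group. The next were chr16:56080001-89920000 (33.8 Mb), chr6:2960001-28560000 (25.6 Mb) and chr1:95760001-120240000 (24.5 Mb). In early cells the bins of the chromosome 14 stretch were replicated in 3.33% of cells and those of the chromosome 1 stretch in 1.78%, averaged over groups. The chromosome 6 stretch differed from the other 3 in that only 21.3% of its bins were late in every group, against 41.8% to 56.5%.

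The order within the set was read from the early cells, which the rule did not use. In cells with scores of 5 to 10% a median of 20.7% of the set was already replicated, against 3.52% of the other bins (22 cells). At scores of 10 to 20% the medians were 44.6% and 4.86% (44 cells), at 20 to 30% they were 67.99% and 9.30% (62 cells), and at 30 to 40% they were 86.3% and 17.9% (72 cells). The set was ahead of the other bins in all but 2 of these 200 cells. The 2 exceptions, at d3 and d5, were among 14 of the 200 whose calls did not follow their group's profile. In cells with scores under 5% it was ahead in 34 of 54, with medians of 2.65% and 1.14%. The set made up 66.5% of all bins replicated in early cells, and 73.7% at scores of 10 to 20%.

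**Figure D2:**
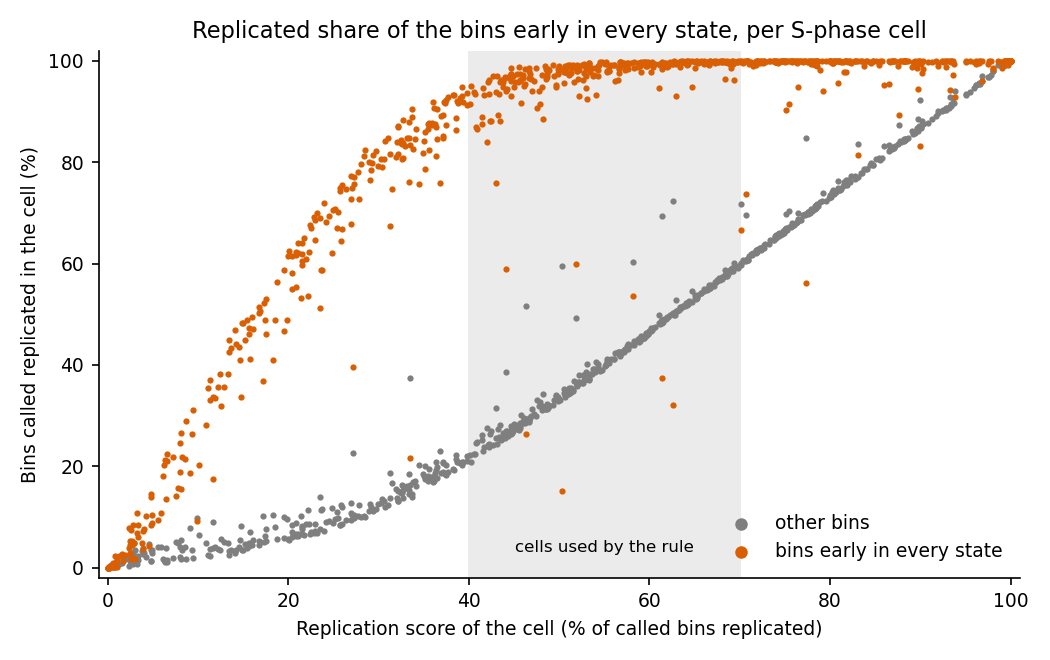
Percentage of the bins early in every state (orange) and of the other called bins (grey) that were replicated in each of the 805 S-phase cells, against the cell's replication score. The grey band marks the 293 cells used by the rule, and in early cells to its left the median share of the set rises from 20.7% at scores of 5 to 10% to 86.3% at 30 to 40%.

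The set filled over a range of scores, while some of the other bins were already being replicated. The score counts the set's own bins, 25.8% of those compared, so it rises as the set fills. The range of scores is therefore partly arithmetic and is not a measure of time. Cells in which 40 to 60% of the set was replicated had a median score of 17.1% (38 cells, with 5.51% of the other bins replicated). Cells in which 85 to 95% of it was replicated had a median score of 40.1% (77 cells, with 22.3% of the others). The score at the first of these points ranged from 14.2% at d4 (2 cells) to 19.9% at d3 (3 cells), and at the second from 35.9% at d5 (6 cells) to 43.2% at d7 (23 cells). At matched scores the groups overlapped: at 10 to 20% the group medians ran from 36.9% at d2 (11 cells, range 17.4% to 56.4%) to 48.8% at d3 (3 cells, 35.6% to 48.9%), and d0 lay at 45.2% (6 cells, 42.6% to 51.5%).

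Averaged over all early cells of a group, 68.4% ± 21.6 (SD over 51 cells) of the set was replicated at d0, and 42.8% (d6) to 50.3% (d7) in the other groups. The d0 cells also had the highest mean score, 25.1% against 15.7% to 20.2%, so this difference cannot be read as a shift in timing. At scores of 30 to 40%, where scores were close, d0 had a median of 86.03% (14 cells) against 83.3% at d3 to 91.8% at d4. When the bins were chosen again without the group being measured, the values were 67.5% at d0 and 41.5% (d3) to 49.4% (d7) in the other groups.

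The early share of a bin is the percentage of a group's early cells in which it was replicated, and its mean over the 8 groups weights the groups equally. It could be had in all groups for 7612 bins of the set. Early share of 50% or more was reached by 3781 of them (49.7%), against a background of 13.8% of all bins measured. The set ranged from 8.61% to 77.3% with a median of 49.9%, and the other bins had a median of 3.91%. Among the 1000 bins with the highest early share, 938 belonged to the set, and among the 4000 highest 3716 did. The remaining 289 other bins at 50% or more were as early on this measure as the upper part of the set, and the set's lower part overlapped the bins outside it.

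Position within a run went with early share. Bins at the end of a run were replicated in 37.6% of early cells (1318 bins) and bins at least 5 bins (400 kb) from both ends in 55.4% (3071 bins), a difference of 17.7 points on average over groups. The centre was ahead in all 8 groups, by 13.99 points at d5 to 24.2 points at d0. Stepwise across the ends of runs of at least 400 kb, early share was 8.04% at 800 kb outside, 17.7% at 240 kb outside, 31.3% in the bin next to the run, 37.7% in the outermost bin, 47.2% at 160 kb inside and 53.7% at 400 kb inside, with little further rise (54.6% at 720 kb). Only longer runs reach the deeper positions, so the steps do not compare the same runs. In cells with scores of 10 to 30% the difference between centre and end was 27.2 points.

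**Figure D3:**
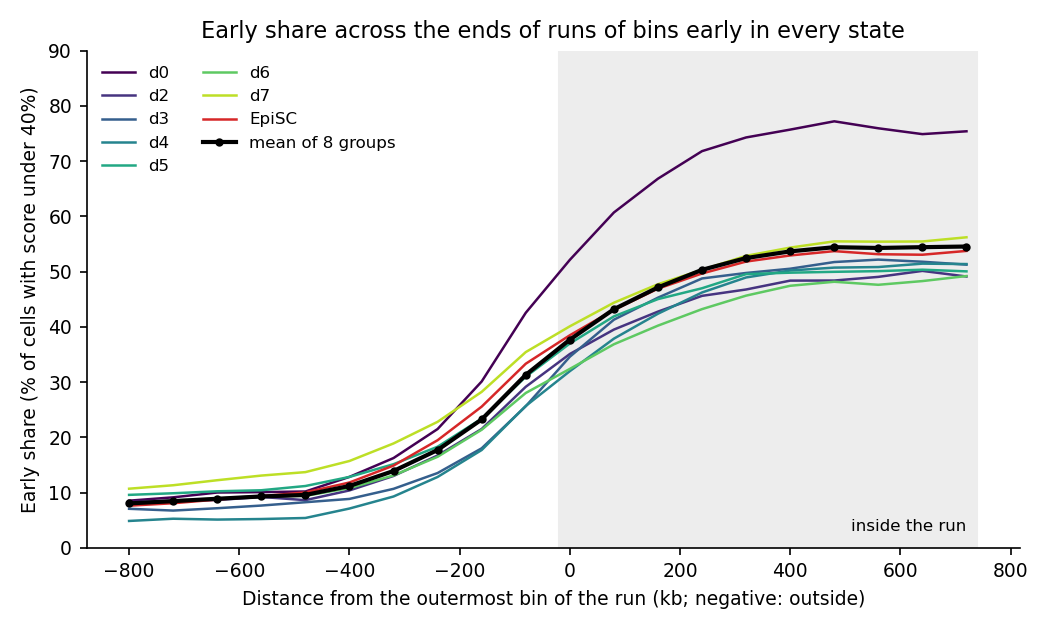
Early share, the percentage of cells with scores under 40% in which a bin was replicated, by distance from the outermost bin of runs of at least 400 kb, for each group (coloured lines) and as the mean of the 8 groups (black). All 8 lines rise across the run end, the mean from 8.04% at 800 kb outside to 37.7% in the outermost bin and 53.7% at 400 kb inside.

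Longer runs were earlier. Single bins had a mean early share of 33.5%, runs of 2 to 4 bins 39.8%, of 5 to 9 bins 43.1%, of 10 to 24 bins 48.2%, of 25 to 49 bins 54.2% and of 50 bins or more 55.9%. Runs of 25 bins or more exceeded runs of 1 to 4 bins by 15.9 points on average over groups (54.7% and 38.8%). The outermost bins alone differed less with run length, from 33.5% for single bins to 42.6% for runs of 50 bins or more. Every bin of a short run lies near a run end, so the rule enters this comparison too.

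**Figure D4:**
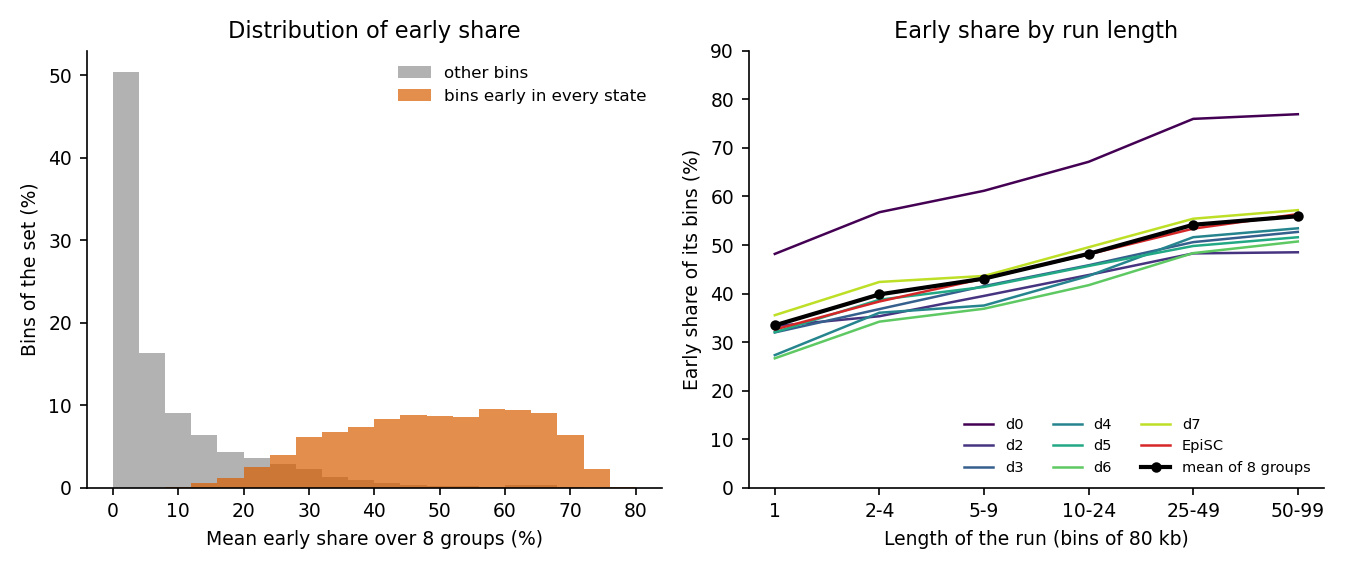
Left, the distribution of mean early share over the 8 groups for the 7612 measured bins early in every state (orange) and for the other measured bins (grey), as a percentage of each set. Right, early share by length of the run in 80 kb bins, per group (coloured lines) and as the mean of 8 groups (black), which rises from 33.5% for single bins to 55.9% for runs of 50 bins or more.

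In single cells, runs were mostly caught part-way. In the early cells with scores of 10% or more whose calls followed their group's profile, the 274 runs of at least 10 bins gave 46202 pairs of a cell and a run. All called bins of the run were replicated in 25.2% of pairs, none in 4.97%, and some but not all in 69.8%. Of the partly replicated pairs, 56.4% had 1 of the outermost bins of the run replicated and the other not, 29.9% had neither replicated and 13.7% had both. The replicated bins formed a single unbroken stretch in 57.5% of partly replicated pairs. Each group showed the same order of the 3 classes, the share with neither end replicated being lowest in EpiSCs (25.9%) and highest at d6 (36.7%).

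Chromosomes differed in how early their part of the set was. Chromosome 11 had the highest mean early share of its bins, 55.7%, followed by chromosome 4 (54.02%) and chromosome 19 (52.2%), and chromosome 13 had the lowest, 38.8%. Chromosome 13 ranked last of 19 in all 8 groups, and chromosome 11 ranked first in 6 and second in d5 and d6. Chromosome 12 moved most in rank, from 18 at d3 to 1 at d6. Chromosomes with more of the set also had an earlier set (r = 0.783, rho = 0.740 across 19 chromosomes), and the same libraries underlie all points.

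The 6 earliest runs of at least 400 kb, by mean early share, lay on chromosomes 4, 2 and 11. The run at chr4:131920001-132560000 was first, at 74%, with 92.6% at d0, 69.4% at d7 and 75.5% in EpiSCs. Its neighbour at chr4:132720001-134080000, separated from it by 160 kb, followed at 70.3%, then chr2:30000001-30400000 at 69.6%, and 3 runs on chromosome 11 at chr11:100320001-102800000 (68.9%), chr11:97440001-99200000 (68.8%) and chr11:96400001-97280000 (67.7%). The first run ranked between 1 and 14 of 451 in every group. The chromosome 2 run was less even, ranking 8 at d0 but well down the order in EpiSCs, where its early share was 55.2% (14 of 25 cells with most of the run replicated, interval 34.9% to 75.6%).

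The 6 latest runs of the set were replicated in 21.7% to 24.3% of early cells. They were chr10:110320001-110880000 (21.7%), chr5:38560001-38960000 (21.8%), chr3:100720001-101600000 (22.7%), chr18:64400001-64960000 (23.3%), chr19:40400001-40800000 (23.7%) and chr3:85680001-86160000 (24.3%). The chromosome 10 run was low in every group, from 12.7% at d4 to 27.3% at d7. Others varied: the run at chr5:38560001-38960000 had 49.0% at d0 and 9.00% at d6, and that at chr18:64400001-64960000 had 36.7% at d0 and 8.00% in EpiSCs. The 20 earliest runs had a median length of 1960 kb. Of these, 5 lay on chromosome 11 and 4 on chromosome 4, which held 687 and 532 of the set's 7614 bins. The 20 latest had a median length of 560 kb, against 960 kb over all 451.

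The order was partly shared between groups. Across the 7612 bins the early shares of a pair of groups correlated with a median Pearson's r of 0.577 over 28 pairs, from 0.427 (d3 and d7) to 0.842 (d6 and d7). Bins are neighbours and not independent, and groups with fewer early cells have coarser shares, so these values are descriptions. The closest pair shared a merged G1 control, the pooled G1 reads used by the authors to correct each cell for mappability. Against d6, the 23 d7 cells of the same control gave r = 0.856 and the 20 d7 cells of another control 0.634, and those 2 sets of d7 cells gave 0.624 with each other. Mean scores were 16.7% at d6, 18.1% in the 23 d7 cells and 22.6% in the 20. Control and score therefore cannot be told apart here. The d0 cells of 3 controls gave 0.795 to 0.835 with one another, and the d2 cells of 2 controls, which had mean scores of 15.6% and 26.3%, gave 0.426.

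The bins replicated first at d0 were mostly ahead elsewhere too. The 25% of the set with the highest early share at d0 (2048 bins with ties, 92.9% on average) had 63.8% at d7 and 62.8% in EpiSCs. The lowest 25% (1934 bins, 32.6%) had 36.8% and 35.5%. Of the 2048 first bins at d0, 1251 (61.1%) were also among the first 25% at d7, of which they made up 66.2%, and 55 were among the last 25%. At d4 the overlap was 71.3% of the d0 bins, and at d5 it was 50.3%. The first bins lay in longer runs, with a median of 2160 kb against 1040 kb for the last, and 7.28% of its bins were run ends against 34.4%.

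Differences in early share between states were counted by a fixed size of 30 points. In all early cells, 110 of 7614 bins of the set were higher at d7 than at d0 by this size (1.44%, with a background of 1.94% over all bins measured) and 1921 were lower (25.2%, background 10%). In EpiSCs 2.02% were higher than at d0 (background 2.33%) and 2616 lower (34.4%, background 13%). The d0 cells had higher scores, and the share of the set that was replicated rose steeply with the score. With cells paired within 3 points of score, 30 at each of d0 and d7, 376 bins were higher at d7 (4.94%, background 4.99%) and 673 lower (8.84%, background 5.95%). With 18 pairs of d0 cells and EpiSCs, 498 were higher in EpiSCs (6.54%, background 5.07%) and 424 lower (5.57%, background 4.22%). The higher share at d7 was thus near the background once scores were matched. For falls the background is a poor measure. A bin can fall by 30 points only from an early share of 30% or more. The other bins had a median early share of 3.91% and an upper quartile of 11.5%, averaged over groups. The background also includes the set itself. More falls in the set than in the background are therefore built in, with matched scores too. All 51 d0 early cells were corrected with other G1 controls than the 45 d7 cells, and 43 of the former but 4 of the latter came from the previous series, so state and control cannot be told apart.

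The 4 runs that rose most from d0 to d7 were chosen by that difference and are described here. The cells matched in score and the sets with 1 control are part of the cells that chose them. Their values therefore describe the rise and do not test it. The run at chr8:94080001-94480000 had an early share of 3.53% at d0 and, from d2 to d7 in turn, of 38.4%, 31.3%, 27.8%, 43.6%, 50.4% and 49.8%. EpiSCs had 27.7%. Most of it was replicated in 0 of 51 d0 cells (exact interval 0% to 6.98%; a limit of 3 counts allows up to 5.88%), and in 24 of 45 cells at d7 (37.9% to 68.3%). In cells matched in score it was replicated in 0 of 30 d0 cells (exact interval 0% to 11.6%) and 20 of 30 d7 cells, and no set of d0 cells with 1 control exceeded 8.75%, while the d7 sets of 23 and 20 cells reached 48.7% and 56%. In d0 window cells the same run was replicated in 86.8% of cells.

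The run at chr1:38480001-39040000 had 5.42% at d0, 44.4% at d7 and 23.4% in EpiSCs, or 2 of 30 against 20 of 30 cells matched in score. The run at chr2:92880001-93360000 had 21.2% at d0, 55.6% at d7 and 59.3% in EpiSCs, with a low of 6.25% at d3. The run at chr2:173600001-174640000 had 12.1%, 44.2% and 32.6%. In window cells at d0 these 4 runs were replicated in 85.3% to 92.4% of cells.

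The largest fall was in the run at chr13:97120001-97600000. Its early share was 78.1% at d0 and, from d2 to d7 in turn, 55.6%, 44.8%, 28.7%, 36.4%, 8.02% and 15.2%. EpiSCs had 24%. Most of it was replicated in 39 of 51 cells at d0 (62.5% to 87.2%) and in 7 of 45 at d7 (6.49% to 29.5%), in the cells by which the run was chosen. In cells matched in score, which are part of those cells, the counts were 19 of 30 and 4 of 30. The next falls were at chr3:30480001-31120000 (82.6% at d0, 28.1% at d7), chr14:35040001-35680000 (91.2% and 38.3%) and chr3:8880001-9440000 (83.8% and 33.97%). The chromosome 14 run went from rank 15 of 451 at d0 to 352 at d7, and had 69.5% at d3 and 53.2% in EpiSCs.

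For all 4 falls, each set of d0 cells with 1 control lay above the larger d7 sets. The lowest d0 set had 69.8% to 82.8% and the highest of the larger d7 sets 15.8% to 45.6%. No control held early cells of both d0 and d7, so state and control cannot be told apart here either. In the 8 early d0 cells of the present series the 4 runs were at 64.6% to 87.5%. These sets of cells overlap those by which the runs were chosen.

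**Figure D5:**
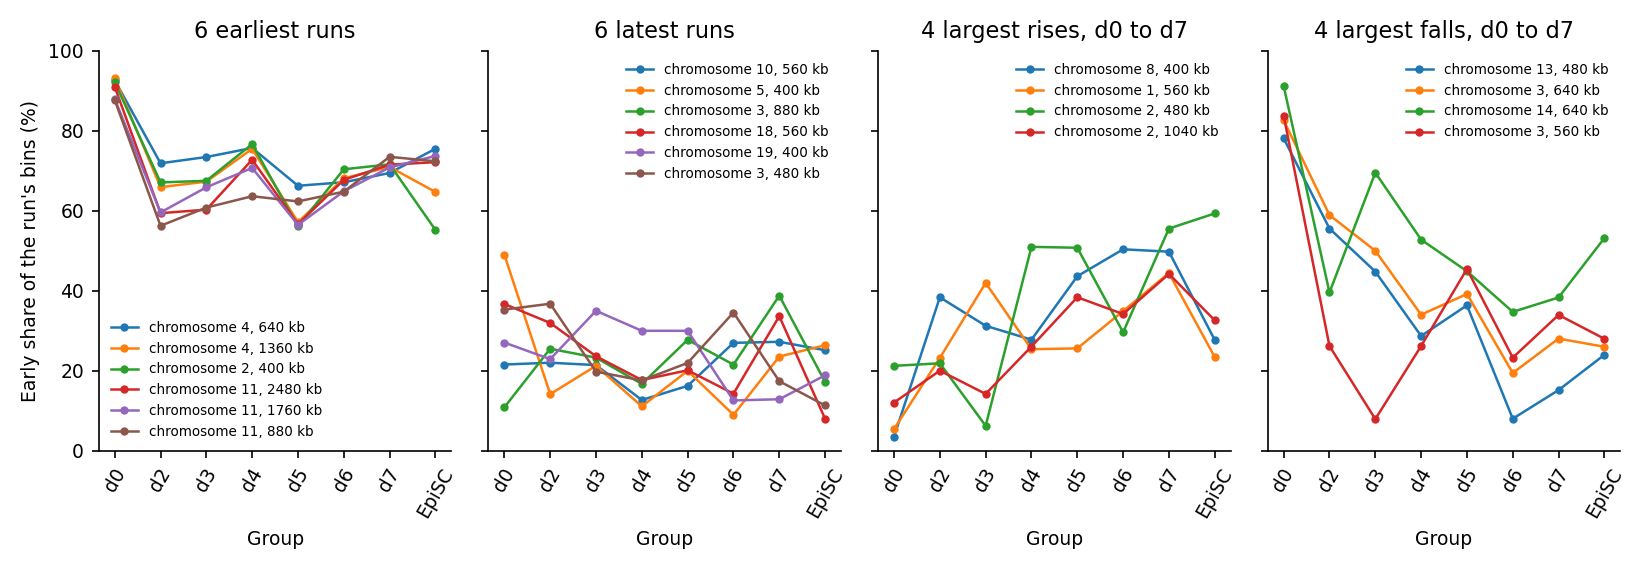
Early share in the 8 groups for the 6 runs of at least 400 kb with the highest mean (left), the 6 with the lowest, and the 4 with the largest rise and the 4 with the largest fall from d0 to d7, each line being 1 run named by chromosome and length. The earliest runs stay at 55.2% or more in every group, and the run on chromosome 8 goes from 3.53% at d0 to 49.8% at d7.

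In late S phase almost nothing of the set was left. In 258 cells with scores above 70%, 1.05% of called bins of the set were not replicated, against 20.4% of the other bins, and the median cell had 0.0789%. The pooled value was 0.0512% at d0 and 0.339% to 0.917% at d2, d4, d5, d6 and d7. It was higher at d3 (3.30%) and in EpiSCs (3.49%), where a few cells held most of it: 15 of 20 d3 cells and 17 of 23 EpiSCs had under 1%, and the highest cells had 43.9% and 33.3%. Over the cells that followed their group's profile the value was 0.342%. Of the 7614 bins of the set, 39 were replicated in under 95% of late cells, in 21 runs, the lowest at 90.6%. The 39 included 7 adjacent bins at chr6:72080001-72640000 (91.7%) and 5 at chr3:144000001-144400000 (92.1%). The other bins under 95% were not counted, so this number has no background beside it.

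Cells sorted from G1, before S phase, show how often bins are called replicated in cells not sorted as S phase. The controls used to correct cells were pooled G1 reads. These values are therefore not an independent error rate for S-phase cells. In the 79 G1 cells, a median of 0.0263% of the set and 0.101% of the other bins was called replicated. In 6 of them the score was above 5%.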

How the data were processed

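Per the labels' protocols, cells sorted by DNA content were amplified with SeqPlex before sequencing. The tools named in the submitters' processing notes are BWA 0.7.10-r789, cutadapt and Picard, and the build is mm9; how reads became calls is not given in the sources used here beyond the merged G1 control named for each cell in the file headers. The deposited calls are coded 1 (replicated), -1 (not replicated) or 0 (no data) per 80 kb bin, and the deposited replication score is a fraction of replicated bins, printed here as a percentage; recomputed from the calls, it differed by at most 5.00e-08 points.

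Groups came from titles. For 7 G1 cells the labels named different days, and they entered no group. Shares per bin, runs, early shares and correlations were computed with scipy 1.17.1, pandas 2.3.3 and numpy 2.4.6 (Python 3.11.15; matplotlib 3.10.9 for figures), and the steps were tested on simulated data. Read depth was not used here; called bins per cell stand in for it. No test was run, since each group is 1 sample, and intervals are exact Clopper-Pearson 95% intervals.

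The bins, the rule and the lists were chosen with earlier results of these data known. Named regions were the 8 longest runs, the 6 earliest and 6 latest runs of at least 5 bins, the 4 with the largest rise and fall from d0 to d7, the 3 chromosomes with the highest and lowest share of the set, the bins nearest the threshold and the 4 longest stretches without a bin of the set. Other regions and the chromosomes compared with them were named after their values were seen. For a run, a cell counted as replicated when most of its called bins were. Score matching took cells of 2 groups within 3 points of score. Alternatives covered the minimum share, the score window, the call filter, the origin of cells and the groups required. Leaving out early and late cells that did not follow their group's profile, leaving out cells marked by the authors' filters, and requiring 6 of 8 groups were added after seeing the data.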

Additional observations from a re-analysis of the deposited data

Results flagged for a closer look

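Among 7 sets of values examined for a sample far from the others, 4 had one, where chance flags about 1 set in 20. The early share of the set was highest at d0, 68.4%, with the next group at 50.3%; the d0 early cells also had the highest mean score (25.1%). In the other 3 sets 1 G1 cell of a group lay far above the rest, with 2.56% of the set called replicated at d3, 29.6% at d4 and 11.0% at d6. The medians of these G1 groups were 0.0197%, 0% and 1.14%. Values that pile up near 0 need not follow the rate of 1 set in 20, so the count of 4 is not evidence against chance.

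No comparison between groups used the G1 cells, and 6 of them had scores above 5% with calls in the set. In cells 4, 5 and 6 of the d2 G1 group, 15.8%, 29.4% and 5.37% of the set was called replicated, against 4.62%, 4.08% and 5.19% of the other bins. Cell 1 of the d4 G1 group had 29.6% against 1.87%, and cell 14 of the d7 G1 group 20.6% against 2.46%. In these 5 cells the set was ahead of the other bins, by under 1 point in cell 6 of d2. Cell 3 of the d3 G1 group went the other way, with 2.56% of the set, 9.09% of the other bins and 14.4% of the bins late in every state.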

How the results depend on the processing

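Of 98 recomputed values, 75 stayed within 1.5 times the count reported, or within the interval or spread of the value reported, 23 moved outside it and 0 changed sign. For shares of the set in early or late cells, that interval was of a count of cells, although the share is a percentage of bins. It was wide in small groups, so large shifts could count as staying. At d5 a shift from 45.8% to 66.5% in early cells, at scores of 5 to 40%, did so. The 75 is therefore not a measure of stability. The number of bins in the set, 7614, fell to 4251 at a minimum share of 90%, to 4 at 100% and to 2108 with present-series cells only; under the other 15 alternatives it was 7499 to 10625. The share of the set in runs of at least 400 kb, 92.7%, was 95.5% at a minimum share of 70% and 73.6% at 90%, and 76.3% of the set lay in runs of at least 10 bins. The share of the set replicated in early cells was 67.01% at d7 in place of 50.3% for scores of 5 to 40%, and 63.8% at d2, 71.98% at d5 and 70.4% at d7 for cells of 5% or more that followed their group's profile, a setting that changes the score minimum and the cells together; the score minimum alone gave 53.6% at d2 and 66.5% at d5. The difference between run centre and run end, 17.7 points, was 27.2 points at scores of 10 to 30% and 23.4 points in cells that followed the profile. The size rule moved under nearly all its alternatives. Of the set, 1.44% was higher at d7 than at d0 in all early cells, 10.5% after subtraction of the set's median difference, 4.94% with matched scores and 4.52% with present-series cells only; 25.2% was lower at d7, and 2.46% and 8.84% under the first 2 of these. In EpiSCs 2.02% was higher, and 10.95%, 6.54% and 5.63% under the 3 alternatives, while 34.4% was lower, and 4.22%, 5.57% and 19.9%. The median correlation between groups stayed between 0.557 and 0.614.

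The number of cells limits the shares: 13 window cells at d3 give steps of 7.69 points, so small differences from the 80% threshold are not detectable there. No paired analysis was possible because no label pairs cells across groups.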
